A study of Mus musculus with 99 samples.

Results

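The C1q-like genes C1ql1 to C1ql4, the cerebellins Cbln1 and Cbln2, the receptor Adgrb3 and the complement genes C1qa, C1qb and C1qc make up 10 of the 55291 gene symbols counted in single hair cells of the mouse cochlea. They were found in the count table by symbol, and all 10 were present. The set was chosen on the contrast described here, because C1ql1 was read in outer hair cells and not in converted cells, and C1qb the other way round. The values of these genes in that contrast are therefore a description, with no test.

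The study picked single cells of 2 kinds by hand under tdTomato fluorescence. The first were 32 wild-type outer hair cells (OHCs), labelled P30_WT_OHC, of C57BL/6 mice with the genotype Slc26a5-CreER/+; Ai9/+ at postnatal day 30. The second were 67 converted inner hair cells (cIHCs), labelled P42_cIHC, of C57BL/6 mice with the genotype Slc26a5-CreER/+; Rosa26Tbx2/+ at postnatal day 42, in which ectopic Tbx2, a T-box transcription factor, turns OHCs towards inner hair cells (IHCs). Both groups carry the CreER allele of Slc26a5, the prestin gene, which drives Cre in OHCs and is also present in the wild-type controls. Age, genotype and the mix of sexes differ together between the groups and cannot be told apart. Xist reads at 10 CPM or more were found in 4 OHCs and 55 cIHCs, and Y-linked reads at that level in 24 OHCs and 12 cIHCs. No untreated IHCs were among the cells analysed here.

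Every deposited sample is a picked cell, with no animal given in the labels, so the cells of a group were summed to 1 sample and nothing was tested between groups. Levels are pooled CPM (counts per 1000000), the summed counts of a gene relative to all counts of its group, and a difference between groups is the log2 of the pooled cIHC level divided by the pooled OHC level. Intervals are exact at 95% and cover counting error only, since the reads have no molecular identifiers and the spread between animals was not measured. Totals ran from 5656512 to 9287413 counts per OHC and from 4677682 to 13792672 per cIHC. OHCs had reads of 4769 to 8567 genes (median 6068.5), and cIHCs had reads of 7081 to 11719 (median 8546). Tbx2 lay at 0 to 0.123 CPM in OHCs and at 113 to 2643 CPM in cIHCs. All 8 OHC markers were at least 2-fold lower and all 8 IHC markers at least 2-fold higher in cIHCs. Of all genes with a ratio, 18.8% were at least 2-fold lower and 42.6% at least 2-fold higher. The marker lists were chosen with earlier results of these data known, so these counts are a description and no check of the labels. Slc26a5, the gene of the OHC motor protein prestin, lay at 994 to 2913 CPM in OHCs and at 0 to 13.3 CPM in cIHCs.

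Apart from the receptor encoded by Adgrb3, the proteins of these genes share the C1q domain, a globular C-terminal fold that assembles in trimers. C1QL proteins and cerebellins are secreted by neurons and sensory cells and organise synapses: C1QL proteins bind the adhesion receptor BAI3, encoded by Adgrb3, and cerebellins bridge presynaptic neurexins and postsynaptic delta-type glutamate receptors. The C1q A, B and C chains together form C1q, the recognition part of the classical complement pathway, which macrophages and microglia are the best known to make. C1ql1 is known as a gene of OHCs in the adult cochlea.

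The coding sequences show how far these genes differ, given here because C1ql1 and C1qb were read well and their relatives hardly at all. Whether each read was assigned to the right gene was not tested. In the 60 coding bases around the longest stretch that C1ql1 shares with C1ql4, the relatives read as follows, 5′ to 3′, with capitals for each base that differs from C1ql1.
C1ql1: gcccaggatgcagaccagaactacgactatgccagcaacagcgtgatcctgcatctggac
C1ql2: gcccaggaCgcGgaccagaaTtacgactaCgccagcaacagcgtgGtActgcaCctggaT
C1ql3: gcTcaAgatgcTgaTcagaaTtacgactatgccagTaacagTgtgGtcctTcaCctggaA
C1ql4: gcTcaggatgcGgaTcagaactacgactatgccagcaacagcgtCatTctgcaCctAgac
The stretch spans coding bases 616 to 675 of C1ql1, counted from 1 at the A of the start codon, and C1ql2, C1ql3 and C1ql4 differ from it at 8, 11 and 7 of the 60 bases. Over the whole coding sequence C1ql1 was 75.8% identical to C1ql2, 75.9% to C1ql3 and 76.1% to C1ql4 in aligned bases. The longest run without a difference was 29 bases, with C1ql4.

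The 3 chains of complement C1q are further apart, here at coding bases 475 to 534 of C1qb, with capitals for bases that differ from C1qb.
C1qb: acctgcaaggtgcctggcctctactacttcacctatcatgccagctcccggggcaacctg
C1qa: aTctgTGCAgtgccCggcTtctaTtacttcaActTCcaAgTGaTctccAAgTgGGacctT
C1qc: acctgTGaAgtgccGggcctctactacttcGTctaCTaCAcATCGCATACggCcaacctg
C1qa differed from C1qb at 21 and C1qc at 20 of these 60 bases. C1qb was 58.9% identical to C1qa and 62.2% to C1qc over the aligned coding bases, and its longest shared runs with them were 12 and 15 bases. The coding sequences are those of GENCODE M21, on GRCm38.

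Of the 10 genes, 4 had no read in any of the 99 cells: C1ql2, C1ql4, Cbln2 and C1qa. With 0 of 99 cells, a share of 3.03% (3 of 99) could be missed. The other 6 had a log2 ratio, 3 of them at least 2-fold higher in cIHCs (C1qb, Adgrb3 and C1ql3) and 3 at least 2-fold lower (C1ql1, Cbln1 and C1qc). Among cells with Xist reads the log2 ratio of C1ql3 was at least 0.27, and among cells with Y-linked reads that of C1qc was at most -0.82. Both are bounds against a group with no read, so a 2-fold difference was neither shown nor excluded in those cells. Among all 23306 genes with a ratio, 42.6% were at least 2-fold higher and 18.8% at least 2-fold lower in cIHCs. As the genes were chosen on this contrast, nothing is read from their share. C1ql1, Cbln1 and C1qb reached 10 CPM in 1 or both groups, 2 of them lower and 1 higher. Of the 10041 genes at that level, 26.3% were at least 2-fold higher and 14.3% at least 2-fold lower.

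**Figure D1:**
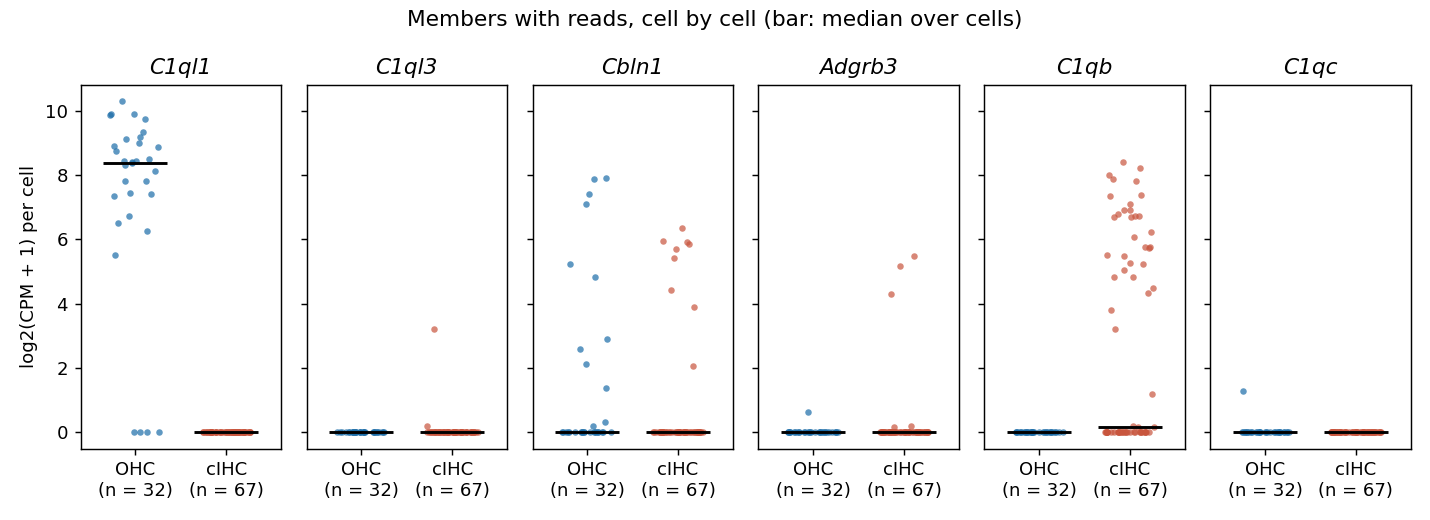
Level of the 6 genes with reads in each cell, as log2(CPM + 1), with 1 point per cell for 32 OHCs and 67 cIHCs and a bar at the median of each group. C1ql1 has points above 0 in OHCs alone (28 of 32), C1qb has them in cIHCs alone (35 of 67), and C1ql3 and C1qc rest on 2 cells and 1 cell.

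C1ql1, a synaptic organiser, was read in most OHCs and in none of the converted cells. It lies on chromosome 11 at 102939264 to 102946688 (GRCm38, minus strand). In the 32 OHCs its level ran from 0 to 1260 CPM with a median of 336.2 CPM, and in the 67 cIHCs it was 0 CPM in every cell. The OHC values spread widely: the middle of the cells lay between 148 and 529 CPM (quartiles), the mean was 384 ± 327 CPM (SD over 32 cells), and the 3 highest cells gave 25.9% of the counts. The groups overlapped at 0 only, because 4 OHCs also had no read.

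Summed over OHCs, C1ql1 had 91691 counts, a pooled level of 378.8 CPM (exact Poisson 376.4 to 381.3). Reads were found in 28 of 32 OHCs, or 87.5% (exact Clopper-Pearson 71.0 to 96.5%), and all 28 were at 10 CPM or more. Not 1 of the 67 cIHCs had a read, which leaves room for a share of 4.48% (3 of 67 cells, the limit taken for a count of 0) and by the exact Clopper-Pearson bound for 5.36%. Against a floor of 3 counts over the cIHCs, C1ql1 was at least 68691-fold lower there, a log2 ratio of at most -16.07 with an upper exact bound of -15.77. C1ql1 had the highest OHC level of the 40 genes with at least 10 CPM in OHCs and no read in any cIHC. With the 2 OHCs and 36 cIHCs whose number of genes with reads lay in the range common to both groups (7081 to 8567), the log2 ratio was at most -12.18. Of these 2 OHCs, cell 7, with 7123 genes, had no C1ql1 read, so that value rests on the other OHC. With cells that had Y-linked reads the log2 ratio was at most -13.31.

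The 4 OHCs without C1ql1 reads were cells 7, 9, 14 and 22. All 4 had OHC levels of Slc26a5, from 1824 CPM in cell 7 to 2535 CPM in cell 9. Ocm, which encodes the calcium buffer oncomodulin of OHCs, lay at 41598 CPM in cell 7, 52780 CPM in cell 9, 45412 CPM in cell 14 and 17896 CPM in cell 22. Cell 22 had the lowest Ocm of the 32 OHCs and also the highest Slc17a8, the vesicular glutamate transporter gene of IHCs, at 594.5 CPM against an OHC median of 0.136 CPM. The other 3 cells had 0.121, 0 and 109 CPM of Slc17a8. Ikzf2, which encodes the OHC factor Helios, was at 0 CPM in cell 7, 45.7 CPM in cell 9, 47.9 CPM in cell 14 and 323 CPM in cell 22, where the median of all OHCs was 324 CPM, so it was low in 3 of the 4. Cells 9 and 14 had the 2 highest Cbln1 levels of all OHCs. The totals of the 4 cells, 6264096 to 8429640 counts, were inside the range of the other OHCs.

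Across the 32 OHCs the level of C1ql1 did not follow the 3 OHC markers it was compared with. Spearman's rho was -0.01 with Slc26a5, -0.05 with Ocm, -0.03 with Ikzf2, and -0.12 with the total count of the cell. These are descriptions over 32 cells of 1 group that share library preparation and differ in depth. The 5 genes with the most similar pattern, of 2511 genes compared, were Kif13a (rho 0.55), Malat1 (0.55), Rps6 (0.53), Pknox2 (0.53) and Zcchc17 (0.53), where the median gene had 0.01 and the 95th percentile was 0.31. Their pooled OHC levels ran from 96.5 CPM for Pknox2 to 2062 CPM for Malat1. None of the 5 stayed among the first 5 when likeness was measured by Pearson's r of log2(CPM + 1), where Kif13a had 0.34 and Rps6 0.12.

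The genes near C1ql1 with a clear level in OHCs were also read in cIHCs. Within 150 kb, and named here for their position, Eftud2, a spliceosome gene, was at 108 CPM in OHCs and 72.8 CPM in cIHCs. Plcd3, a phospholipase C gene, was at 55.2 and 46.5 CPM. Nmt1, an N-myristoyltransferase gene, was higher in cIHCs, at 47.7 CPM in OHCs and 146 CPM in cIHCs. Ccdc103, whose product acts in motile cilia, had no read in OHCs and 19.1 CPM in cIHCs, in 23 cells.

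C1ql2, C1ql3 and C1ql4, the close relatives of C1ql1, were not read in its place in the converted cells. C1ql2 and C1ql4 had no read in either group. C1ql3 had no read in OHCs and 58 counts in cIHCs, of which 57 came from cell 27 (8.21 CPM) and 1 from cell 36. Its pooled cIHC level was 0.107 CPM (exact 0.081 to 0.138), and its log2 ratio of at least 3.10 therefore rests on 1 cell. C1ql3 also shares 1547 of its 2535 exon bases, 61.03%, with Gm37811, a gene annotated on the other strand, so reads there could not be assigned with certainty.

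Cbln1, the cerebellin of the cerebellar parallel fibre synapse, was read in a minority of both kinds of cell. It lies on chromosome 8 at 87468405 to 87472609 (GRCm38, minus strand). In OHCs it ran from 0 to 239 CPM with a median of 0, and in cIHCs from 0 to 81.0 CPM with a median of 0. The groups overlapped, and in 11.3% of the pairs of 1 cIHC and 1 OHC the cIHC was higher, in 34.6% the OHC was higher and in 54.1% they were equal. Reads were found in 12 of 32 OHCs (37.5%, exact 21.1 to 56.3%) and in 9 of 67 cIHCs (13.4%, exact 6.33 to 23.97%).

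The Cbln1 counts of OHCs were concentrated in 4 cells above 100 CPM: cell 14 with 239 CPM, cell 9 with 237 CPM, cell 6 with 170 CPM and cell 25 with 136 CPM. Cells 14 and 9 were also 2 of the 4 OHCs without C1ql1 reads. Of the 12 OHCs with Cbln1 reads, 9 had C1ql1 reads as well. In cIHCs the 9 cells lay between 3.18 and 81.0 CPM, with a median of 50.9 CPM among them. Pooled, Cbln1 was at 27.9 CPM over OHCs and 5.14 CPM over cIHCs (log2 ratio -2.44, exact -2.51 to -2.38).

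The direction of the Cbln1 ratio turned with the cells used. None of the 4 OHCs with Xist reads had a Cbln1 read, whereas all 9 cIHCs with Cbln1 reads had Xist reads, and among cells with Xist reads the log2 ratio was at least 5.86. Among cells with Y-linked reads, 9 of 24 OHCs and 0 of 12 cIHCs had Cbln1 reads, and the ratio was at most -9.58. In the common range of genes with reads, which held only 2 OHCs, it was at least 6.36. How much of the Cbln1 difference goes with sex, age or genotype was not tested.

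The gene span of Cbln1 overlaps that of Gm2694, a long noncoding RNA on the other strand, with no exon bases in common. Gm2694, named for its position, was at 136 CPM in OHCs and 26.1 CPM in cIHCs. All 12 OHCs with Cbln1 reads had Gm2694 reads, as did 30 of the 32 OHCs. Of the 9 cIHCs with Cbln1 reads, 7 had Gm2694 reads, against 44 of all 67. The sources used here do not say whether the counting used strand. Cbln2, the other cerebellin in the set, had no read in either group.

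Adgrb3, the receptor for C1QL proteins, was near the limit of detection in OHCs and rare in cIHCs. It lies on chromosome 1 at 25067476 to 25829707 (GRCm38, minus strand). OHCs had 4 counts, all in cell 30 (0.532 CPM). cIHCs had 686 counts in 5 of 67 cells (7.46%, exact 2.47 to 16.6%): 43.8 CPM in cell 13, 35.2 CPM in cell 28, 18.9 CPM in cell 3, and 1 count each in cells 29 and 48. The pooled levels were 0.017 CPM and 1.26 CPM, a log2 ratio of 6.25 (exact 4.89 to 8.13), and at least 3.55 among cells with Xist reads. The median was 0 in both groups, and 62 of the 67 cIHCs had no Adgrb3 read.

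The organiser partners reported here were 9 genes: the Adgrb3 relatives Adgrb1 and Adgrb2, other cerebellins, Grid1, which encodes a delta-type glutamate receptor, Nrxn2 and Nrxn3, which encode neurexins, and the kainate receptor genes Grik2 and Grik4. Of the 7 with a ratio, 3 were at least 2-fold higher in cIHCs (Nrxn3, Adgrb1 and Grik4) and 4 at least 2-fold lower (Adgrb2, Nrxn2, Grid1 and Grik2), beside 42.6% and 18.8% of all genes. The exact interval of Grik4, -0.18 to 3.96, includes no difference. Of the 3 that reached 10 CPM in a group, 1 was higher and 2 were lower. The list is not complete, so nothing is read from the balance of higher and lower genes. Adgrb1, Grid1, Grik2 and Grik4 stayed under 3 CPM in both groups and are named only to complete those counts.

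Nrxn3 and Nrxn2 encode neurexins, presynaptic receptors of cerebellins, and they differed in opposite directions. Nrxn3 was at 0 to 1.596 CPM in OHCs and 0 to 357 CPM in cIHCs, with medians of 0 and 28.8 CPM. It was read in 4 OHCs and 46 cIHCs, with a log2 ratio of 9.91 (exact 9.18 to 10.74). Among cells with Xist reads the ratio was 7.45, and leaving out the highest cell per group it was 11.32. Of 7 spiral ganglion neuron markers, 4 had a ratio and all 4 were at least 2-fold higher in cIHCs, beside 42.6% of all genes with a ratio. Prph and Thy1 had no read in any cell. The 7 markers summed to 73.2 CPM in OHCs (cells from 0 to 386) and 311 CPM in cIHCs (cells from 21.2 to 714). Their part in the Nrxn3 difference was not tested. Nrxn2 went the other way, at 13.76 CPM over OHCs and 6.48 CPM over cIHCs (log2 ratio -1.09, exact -1.15 to -1.02), and its cells overlapped widely, from 0 to 105 CPM and from 0 to 50.996 CPM. Of the 35 cIHCs with C1qb reads, 30 also had Nrxn3 reads, as did 16 of the other 32.

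Adgrb2, which encodes the receptor BAI2, was far lower in cIHCs, as C1ql1 was. In OHCs it ran from 0 to 341 CPM with a median of 0.826 CPM, and in cIHCs from 0 to 4.28 CPM with a median of 0. It was read in 19 OHCs and 2 cIHCs, at 55.9 and 0.083 CPM pooled, a log2 ratio of -9.40 (exact -9.86 to -8.98), and -12.04 without the highest cell of either group. The groups overlapped at low values, since 13 OHCs had no Adgrb2 read. Among the OHCs C1ql1 and Adgrb2 did not vary together: 17 had reads of both, 11 of C1ql1 alone, 2 of Adgrb2 alone and 2 of neither, with a Spearman rho of 0.01.

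**Figure D2:**
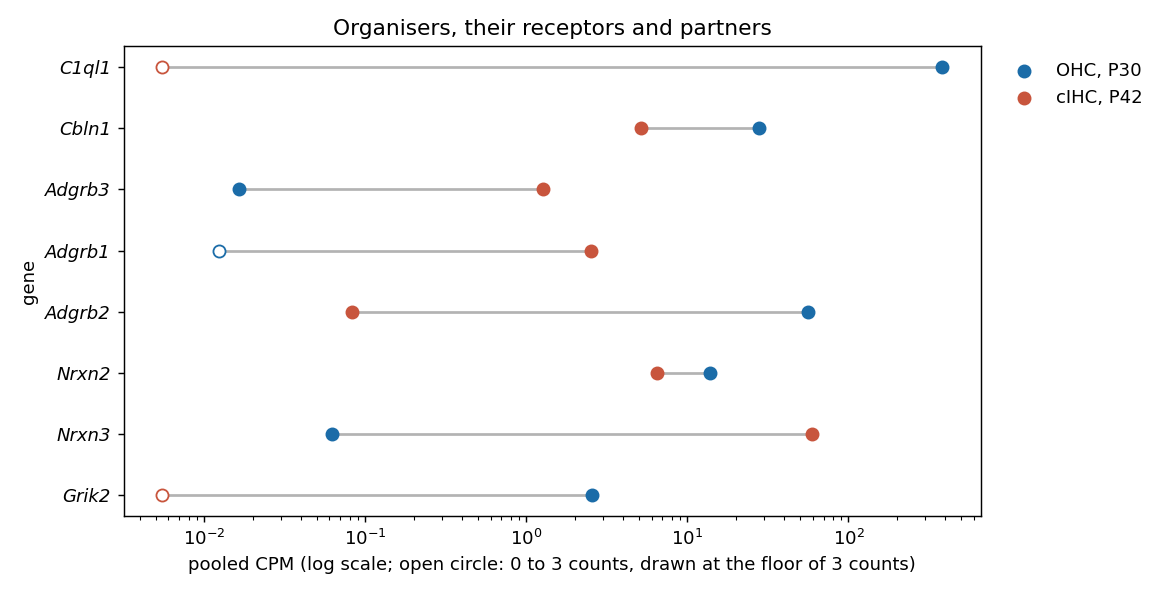
Pooled CPM of C1ql1, Cbln1, Adgrb3 and the partner genes with at least 0.1 CPM in a group, on a log scale, with 1 point for the 32 OHCs and 1 for the 67 cIHCs, and open circles at the floor where a group had 0 to 3 counts. The lines for C1ql1 and Adgrb2 run from high OHC to low cIHC levels, and that for Nrxn3 runs the other way.

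Of the 3 complement C1q chains, the B chain alone was read in converted cells. C1qb, C1qc and C1qa stand in a row on the minus strand of chromosome 4: C1qb at 136880129 to 136886187, C1qc at 136889804 to 136893065 and C1qa at 136895917 to 136898803 (GRCm38). C1qb had no read in any OHC. In cIHCs it ran from 0 to 336.9 CPM with a median of 0.125 CPM, and about as many cells had reads as had none. Of 67 cIHCs, 32 had no C1qb read, 5 were above 0 and under 10 CPM, 30 were at 10 CPM or more and 15 of these at 100 CPM or more.

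Summed over cIHCs, C1qb had 26245 counts, a pooled level of 48.2 CPM (exact Poisson 47.7 to 48.8). Reads were found in 35 of 67 cIHCs, or 52.2% (exact 39.7 to 64.6%), and in 0 of 32 OHCs, where the limit of 3 cells is 9.38% and the exact bound 10.9%. After each cell was thinned to 5770000 reads, 34 of 66 cIHCs still had C1qb reads (51.5%). Against the floor, C1qb was at least 3893-fold higher in cIHCs, a log2 ratio of at least 11.93 with a lower exact bound of 11.63. The counts were not those of a few cells: the highest cell gave 9.03% and the 3 highest 24.3% of them.

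In the range of genes with reads common to both groups the C1qb log2 ratio was at least 7.74, with 2 OHCs. By the median of cells it was 3.34, but the cIHC median of 0.125 CPM is 1 count in cell 53. The OHC median of 0 was set to the pooled floor of 0.012 CPM, so 3.34 is no bound for single cells. Among cells with Xist reads the ratio was at least 8.94, with C1qb reads in 30 of 55 cIHCs and 0 of 4 OHCs. Of the 12 cIHCs with Y-linked reads, 5 also had C1qb reads. The 229 genes with at least 10 CPM in cIHCs and no read in any OHC included C1qb, and 31 of them, C1qb among these, were at its level or above.

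The other chains did not accompany C1qb. C1qa had no read in any cell. C1qc had no read in cIHCs and 12 counts in OHC cell 1 (1.43 CPM), so its log2 ratio of at most -3.17 rests on that cell. In each of the 5 highest C1qb cells, at 336.9, 298.3, 256.2, 236.9 and 225.6 CPM, C1qa and C1qc were both at 0. The next genes along the chromosome were under 10 CPM in cIHCs. Epha8, an ephrin receptor gene 43232 bases away, was at 1.15 CPM in cIHCs, in 3 cells. Ephb2, 44141 bases away, was at 3.04 CPM in 9 cIHCs, and Zbtb40, 93545 bases away, at 7.62 CPM in 20 cIHCs.

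The promoters of C1qb and C1qc are shown because these neighbours, 3617 bases apart, differed in the converted cells. Each line is the 250 bases before the RefSeq start site, 5′ to 3′ on the minus strand of GRCm38.p6, at chr4:136886201-136886450 for C1qb and chr4:136892915-136893164 for C1qc. Capitals mark a match to the searched motifs.
C1qb: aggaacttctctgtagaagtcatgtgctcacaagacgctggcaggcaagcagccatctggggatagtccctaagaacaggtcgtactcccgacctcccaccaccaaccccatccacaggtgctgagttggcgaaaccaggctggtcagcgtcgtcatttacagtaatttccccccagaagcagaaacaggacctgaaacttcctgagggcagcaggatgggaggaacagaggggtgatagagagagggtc
C1qc: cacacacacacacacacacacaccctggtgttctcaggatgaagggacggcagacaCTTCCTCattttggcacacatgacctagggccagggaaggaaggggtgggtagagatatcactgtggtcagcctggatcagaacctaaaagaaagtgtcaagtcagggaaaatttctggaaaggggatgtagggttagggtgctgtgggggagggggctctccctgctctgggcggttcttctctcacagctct
A T-box half-site, GGTGTGA on either strand, was searched because Tbx2 belongs to that family, and an ETS-type site, GAGGAAG on either strand, because the myeloid factor PU.1 binds such letters. In the windows of 300 bases around the start sites, C1qb had 0 matches to each, and C1qc had 0 to the first and 1 to the second. Of all 32851 RefSeq promoters of this length, 3.98% held the first and 13.6% the second. The promoter table held 6 of the 10 genes.

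Macrophages are the best known source of C1q, so their genes were listed beside C1qb. Of the 14 macrophage genes reported here, which are not a complete list, 8 had no read in any cIHC, among them Adgre1 (F4/80), Tyrobp, Aif1, Cx3cr1, Lyz2 and Trem2. Csf1r had reads in 1 cIHC and Ptprc (CD45) in 2, none of them cells with C1qb reads. Fcer1g, the Fc receptor gamma chain, had reads in 4 cIHCs, all with C1qb reads, at up to 28.5 CPM. Cd68 had reads in 3, of which 1 had C1qb reads.

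The 14 genes summed to 3.33 CPM in cIHCs, beside 48.2 CPM for C1qb. Of the 35 cells with C1qb reads, 30 had no read of any of these 14 genes, and the highest sum in the other 5 was 40.7 CPM. The sum was higher in OHCs (89.2 CPM, cells from 0 to 405) than in cIHCs (cells from 0 to 46.7 CPM), mostly through Laptm5, at 81.4 CPM in 17 OHCs. The part of macrophage RNA in the C1qb reads was not tested beyond these values.

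**Figure D3:**
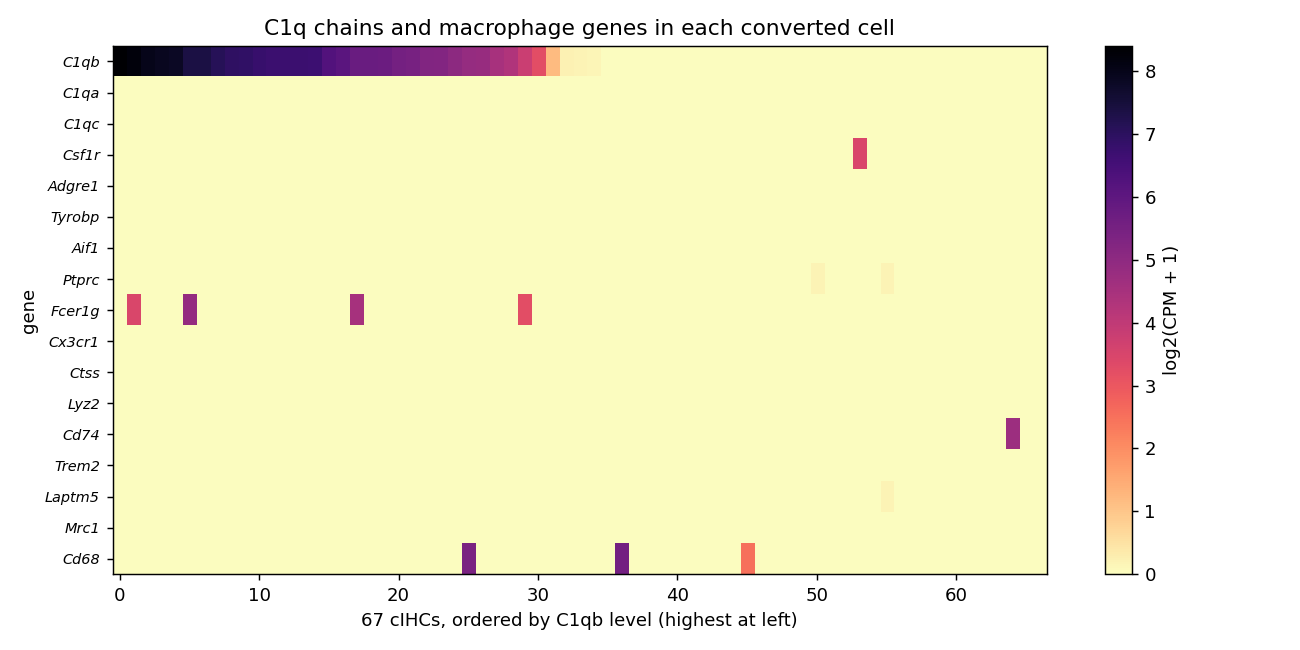
Levels of C1qb, C1qa, C1qc and 14 macrophage genes in each of the 67 cIHCs, as log2(CPM + 1), with 1 column per cell ordered by C1qb level. The 35 columns at the left have C1qb reads, C1qa and C1qc are at 0 in all columns, and each macrophage gene shown is read in at most 4 cells.

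Cells with C1qb reads had slightly higher medians of depth and of genes with reads than the rest, within overlapping ranges. They had reads of 7081 to 11719 genes (median 8620), and the other 32 cIHCs of 7284 to 9887 (median 8422.5). The median totals were 7797800 and 7733117 counts. Over the 67 cIHCs, Spearman's rho of C1qb was 0.09 with the total count and 0.17 with the number of genes with reads. It was 0.25 with Tbx2, -0.30 with Ocm, -0.05 with Slc17a8 and 0.38 with Nrxn3. All 5 of the highest C1qb cells had under 0.5 CPM of Ocm, where cIHCs as a whole ran from 0 to 4718 CPM with a median of 14.7 CPM. Such low Ocm was common, since the lower quartile of all cIHCs was 0.117 CPM.

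The 5 genes most like C1qb across the 67 cIHCs, of 9089 compared, were Tmem232 (rho 0.56), Lasp1 (0.54), Enkur (0.53), Spa17 (0.52) and Ccdc39 (0.48), with 0.03 for the median gene and 0.26 at the 95th percentile. By Pearson's r of log2(CPM + 1), 3 of them stayed among the first 5: Lasp1 with 0.53, Ccdc39 with 0.50 and Spa17 with 0.49. Only genes with at least 10 pooled CPM in cIHCs were compared, which favours genes higher there. Nothing is therefore read from the directions of the 5. Tmem232 went from 0.004 to 10.1 CPM, Enkur from 12.0 to 103 CPM and Spa17 from 8.92 to 34.05 CPM, whereas Lasp1 went from 212 down to 13.7 CPM and Ccdc39 stayed at 19.1 and 18.5 CPM. These correlations describe cells of 1 group with differing depth and many values of 0.

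Of 28 other complement genes, 17 had a ratio: 7 were at least 2-fold higher in cIHCs, 3 lower and 7 within 2-fold, with a median log2 ratio of 0.18. These shares lie near those of all genes with a ratio (42.6% higher and 18.8% lower), so they are no result about complement. Of the 6 at 10 CPM or more, 2 were higher and 0 lower, where 26.3% and 14.3% of all genes at that level were. The C1r and C1s proteases that join C1q had no read in cIHCs: C1ra, C1rb and C1s2 had none in either group, and C1s1 had 1 count in an OHC. C3, the central protein of the cascade, also had none in either group. Of the genes that act between them, named to complete the pathway, C4a was at 2.05 CPM in 7 cIHCs, C4b at 0.369 CPM in 3 and C2 at 0.651 CPM in 3, and C4a and C4b had no read in OHCs.

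The complement genes more than 2-fold higher in cIHCs at 10 CPM or more were 2 regulators. Cd59a, whose product blocks the membrane attack complex on the cell's own surface, ran from 0 to 0.141 CPM in OHCs and from 0 to 1620 CPM in cIHCs, with medians of 0 and 265 CPM. It had 1 count in OHCs and 193953 in 63 cIHCs, 357 CPM pooled, a log2 ratio of 16.40 whose exact interval, 13.92 to 21.70, is set by the 1 OHC count. In the common range of genes with reads the ratio was at least 10.53. Of the 35 cIHCs with C1qb reads, 34 had Cd59a reads, as had 29 of the other 32.

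Cfi, which encodes the protease factor I that degrades C3b and C4b, was at 1.46 CPM over OHCs, in 3 cells, and 14.2 CPM over cIHCs, in 29 cells (log2 ratio 3.28, exact 3.13 to 3.44). Clu, the most abundant gene of the list and a fluid-phase inhibitor of the terminal pathway, was at 568 CPM in OHCs and 381 CPM in cIHCs, within 2-fold. Its cells overlapped throughout, from 0 to 2711 and from 0 to 1924 CPM.

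Of the other genes with a C1q domain, C1qtnf4 and Emilin2 were lower in cIHCs. Of 20 genes, 9 had a ratio, with 4 at least 2-fold higher, 3 lower and 2 within 2-fold, and a median of -0.36 beside 0.58 over all genes, of which 42.6% were higher and 18.8% lower. Of the 4 at 10 CPM or more, 2 were lower and 0 higher, beside 14.3% and 26.3% of all genes at that level. C1qtnf4, a secreted C1q/TNF-related protein gene and the most abundant of the list in OHCs, went from 67.3 to 10.4 CPM, with reads in 18 OHCs and 19 cIHCs and a log2 ratio of -2.69 (exact -2.74 to -2.65). Emilin2, an extracellular matrix glycoprotein gene, went from 22.7 to 1.81 CPM, with reads in 17 OHCs and 8 cIHCs and a log2 ratio of -3.65 (exact -3.75 to -3.55).

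Per kilobase of exon, which allows genes to be compared with each other, C1ql1 stood first of the 10 genes in OHCs with 257 CPM per kb, followed by Cbln1 with 9.20, C1qc with 0.026 and Adgrb3 with 0.00089. In cIHCs the order was C1qb with 44.3 CPM per kb, Cbln1 with 1.69, Adgrb3 with 0.068 and C1ql3 with 0.042. C1ql1 in OHCs was thus above C1qb in cIHCs, and both were far above the remaining members. The counting intervals of neighbours in these orders did not overlap, but their cells did, since each gene had cells without reads.

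Set against all genes, the ratios of C1ql1 and C1qb were near the ends of the distribution, as their choice fixed. The median log2 ratio of the 10041 genes at 10 CPM or more was 0.25, with 5th and 95th percentiles of -2.37 and 4.98. Cbln1, at -2.44, was just outside the lower of these. No member had cells of the 2 groups without overlap, because C1ql1 and C1qb were each at 0 in some cells of the group that had them. Such a separation was found in 17 of the 10041 genes, or 0.169%.

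**Figure D4:**
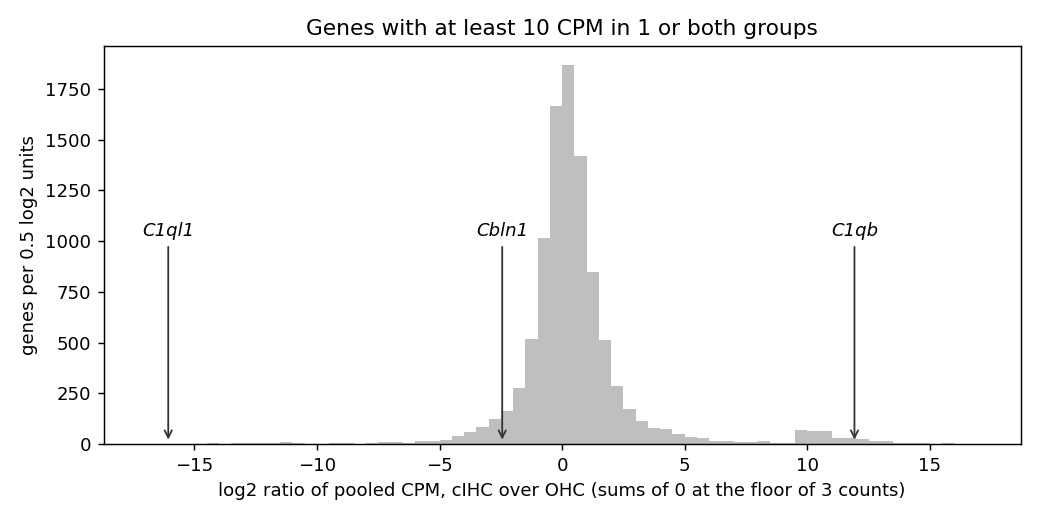
Histogram of log2 ratios, cIHC over OHC, of the 10041 genes that reach 10 CPM in a group, in bins of 0.5 with sums of 0 set to the floor of 3 counts. Arrows show C1ql1 at -16.07, Cbln1 at -2.44 and C1qb at 11.93, against a median of 0.25.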

How the data were processed

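The authors deposited 1 table of whole-number read counts for 55291 gene symbols in 99 single cells, with no normalisation. Per the labels' protocols, cells were amplified with the Smart-Seq HT kit and tagmented with the TruePrep kit. The submitters' processing notes name HISAT2 2.2.1, StringTie 2.2.1, featureCounts 2.0.1 and mm10, and the annotation, strand setting and filters are not given in the sources used here.

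Columns were matched to cells by title, and all 32 OHCs and 67 cIHCs were used, with 0 columns left over and 0 identical pairs. Hand-picked cells had no doublet filter. Counts were summed per group and divided by its total (pooled CPM). Genes with both sums at or under 3 counts had no ratio, a sum of 0 was set to 3 counts, and 2-fold (log2 of 1) marked a difference. Thinning drew 5770000 reads per cell without replacement. Intervals were exact Poisson (CPM), conditional binomial (ratios) and Clopper-Pearson (shares), at 95%, and for 0 of n cells the limit of 3 of n is given too. Likeness was Spearman's rho over cells, among genes with at least 10 pooled CPM and reads in at least 75% of OHCs (for C1ql1) or 10% of cIHCs (for C1qb). Scripts ran in Python 3.11.15 with pandas 2.3.3 and scipy 1.17.1, and edgeR 4.0.16 gave the TMM factors. They were tested on simulated data.

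The members and gene lists were chosen with earlier results of these data known. Some genes of the organiser partner and macrophage lists are not reported here, and the counts and sums of these lists leave them out. Genes were named by rule: all members, list genes past 2-fold with at least 10 CPM (up to 8 per list), the most abundant of each list, and the 5 nearest in likeness. Others are named for their position, to complete a count, or as marker genes beside C1qb or the OHCs without C1ql1, after their values were seen. Exons, coding sequences and positions are from GENCODE M21 and promoters from RefSeq (GRCm38.p6).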

Additional observations from a re-analysis of the deposited data

How the results depend on the processing

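The log2 ratio of C1ql1 could not change direction under any of the 12 alternatives, nor could that of C1qb. Each gene had no read in any cell of 1 group, so only the size of the ratio could move. For C1ql1 it was -12.18 in the common range of genes with reads, over 36 cIHCs and 2 OHCs, of which cell 7 had no C1ql1 read. It was -13.31 over cells with Y-linked reads and -18.65 with 0.5 counts added and no floor. The other 9 alternatives ran from -16.27 to -15.61. For C1qb it was 3.34 from the median of cells, with the OHC median of 0 set to the pooled floor. It was 7.74 in the common range of genes with reads and 8.94 over cells with Xist reads. With 0.5 counts added it was 14.51. The other 8 alternatives ran from 10.95, over cells with Y-linked reads, to 11.91. Bounds against a group at 0 shrink by construction when fewer cells are summed. The Cbln1 ratio, -2.44 over all cells, turned to 6.36 in the common range of genes with reads and to 5.86 over cells with Xist reads, sets that held 2 and 4 OHCs. Adgrb3, Nrxn3, Adgrb2 and Cd59a kept their direction under every alternative that gave a value, at 3.55 to 6.46, 7.34 to 11.32, -12.04 to -7.23 and 10.53 to 16.35.

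With only genes at 10 CPM or more, 1 organiser partner was at least 2-fold higher and 2 were lower in place of 3 and 4, 2 complement genes were higher and 0 lower in place of 7 and 3, and 0 genes of the C1q domain family were higher in place of 4, since fewer genes were counted. With the TMM factor these counts were within 1.5 times of the main ones. TMM moved the median ratio of all genes by -0.19 and median-of-ratios scaling by -0.20. An alternative by the median of cells gave no value where both medians were 0 (C1ql3, Cbln1, Adgrb3 and C1qc). No paired analysis was possible because the cells carry numbers that pair nothing across the groups and no test was made. With 1 sample per group there was no replicate to leave out, and the spread between animals is not measured.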
